A study of Mus musculus with 6 samples.

Results

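The genes described here copy DNA once per cell cycle or prepare the cell for S phase, the phase in which it is copied. They were taken from a named list of 44 mouse genes and sorted by the step at which they act. A value could be assigned to 42 of the 44, among 22180 genes named on the array. The others, the clamp loader subunit Rfc4 and the cyclin Ccne2, are read only by probe sets that carry a neighbouring gene's symbol too, and have no value here. All 42 kept a value without any filter on dim signal, and their 6-array means lay between 4.58 and 9.72 on the log2 scale.

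Mouse mammary stem cells were grown as organoids, that is, in 3-dimensional culture, and total RNA was hybridised to single-channel Affymetrix arrays. The 6 arrays fall into 3 of wild-type cells (WT) and 3 of cells lacking Mll3 (Mll3-null), and the question put by the series is what loss of this gene changes. Mll3, whose current symbol is Kmt2c, encodes a histone methyltransferase that acts at enhancers. The labels state that the lines were made by CRISPR. They give neither the site of the edit nor the strain, age or number of mice, and they do not say whether the 3 arrays of a genotype come from 3 lines, from clones or from parallel cultures of 1 line. The p-values below therefore measure the spread between these arrays, which may be technical in part.

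An origin of replication is licensed in G1, when the origin recognition complex with Cdc6 and Cdt1 loads the MCM helicase onto DNA. Cyclin E with its kinase then releases E2F transcription factors, whose targets include most genes of the list, and Cdc45 and the GINS complex turn the loaded helicase into the active one. Primase, the replicative polymerases and the sliding clamp follow, fed by enzymes that make deoxynucleotides, while other proteins repackage the new DNA and guard stalled forks. Because the genes are expressed in cycling cells, RNA from a whole culture cannot tell fewer cycling cells from less RNA per cell.

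E2F sites near the start are a well-known feature of such genes, so promoters are shown first, as RefSeq gives them for GRCm38.p6. The 250 bases before the start were available for 37 of the 42 genes, with 45 starts in all. The E2F words searched were TTCCCGC and its variants, which were TTGGCGC, then TTCGCGC, and lastly TTGCCGC. Both strands were read, and matches may overlap each other. At least 1 match was found at 18 of the 37 genes, or 48.6%, against 11.4% of the 16918 array genes with a promoter in the table. By start it was found at 20 of 45, against 7.89% of all 32851 promoters of that length. The CCAAT box, spelled CCAAT, was present at 62.2% of the 37 genes and 38.7% of the array genes. The word TTTGAA, the cell cycle homology element of many late cell cycle genes, was present at 16.2% and 16.0%. These are matches of letters, not measured binding sites.

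The promoters shown belong to genes whose array values are followed in detail: helicase subunits Mcm5 and Mcm6, which lay on opposite sides in the comparison, and Pola1, Rrm1 and E2f8, which lay more than 1 log2 unit below the WT mean on Mll3-null replicate 3. Mcm4 and Gins1 also lay that far below on this array, but no promoter was available for them. The promoters of Orc1, Rfc3 and Ccne1 follow, whose genotypes did not overlap. The genotypes of E2f2 did not overlap either, but its promoters, which hold no match, are not shown. The share with a match among the promoters shown therefore does not stand for the list. Capitals mark matches to the E2F words, and each run ends at the base before the start.
Mcm5, chr8:75109259-75109508, plus strand: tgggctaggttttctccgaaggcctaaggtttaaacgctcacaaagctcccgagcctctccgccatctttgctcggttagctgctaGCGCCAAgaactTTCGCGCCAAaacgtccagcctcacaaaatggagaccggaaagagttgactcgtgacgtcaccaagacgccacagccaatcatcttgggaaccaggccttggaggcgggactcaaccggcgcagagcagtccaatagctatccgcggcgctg
Mcm6, chr1:128359706-128359955, minus strand: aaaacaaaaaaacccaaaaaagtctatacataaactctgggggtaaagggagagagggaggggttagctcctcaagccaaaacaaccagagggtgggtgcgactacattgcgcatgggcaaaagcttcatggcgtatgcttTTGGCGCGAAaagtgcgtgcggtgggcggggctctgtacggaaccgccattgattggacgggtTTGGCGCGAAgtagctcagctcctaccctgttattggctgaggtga
Pola1, chrX:93632156-93632405, minus strand: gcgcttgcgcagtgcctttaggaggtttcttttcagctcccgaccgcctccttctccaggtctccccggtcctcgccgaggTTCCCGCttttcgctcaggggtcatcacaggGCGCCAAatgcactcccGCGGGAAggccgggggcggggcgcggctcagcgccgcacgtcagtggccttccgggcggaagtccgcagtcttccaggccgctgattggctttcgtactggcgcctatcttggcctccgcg
Rrm1, chr7:102441445-102441694, plus strand: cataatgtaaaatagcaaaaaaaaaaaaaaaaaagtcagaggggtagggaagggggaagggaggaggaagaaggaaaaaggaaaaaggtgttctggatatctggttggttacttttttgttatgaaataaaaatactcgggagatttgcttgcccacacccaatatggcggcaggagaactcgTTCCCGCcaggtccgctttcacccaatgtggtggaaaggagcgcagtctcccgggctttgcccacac
E2f8, chr7:48881597-48881846, minus strand: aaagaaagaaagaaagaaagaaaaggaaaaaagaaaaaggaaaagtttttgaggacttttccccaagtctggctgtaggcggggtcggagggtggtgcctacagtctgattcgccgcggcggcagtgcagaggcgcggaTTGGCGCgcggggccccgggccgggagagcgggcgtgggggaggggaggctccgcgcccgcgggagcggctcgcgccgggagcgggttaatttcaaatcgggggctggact
Orc1, chr4:108579204-108579453, plus strand: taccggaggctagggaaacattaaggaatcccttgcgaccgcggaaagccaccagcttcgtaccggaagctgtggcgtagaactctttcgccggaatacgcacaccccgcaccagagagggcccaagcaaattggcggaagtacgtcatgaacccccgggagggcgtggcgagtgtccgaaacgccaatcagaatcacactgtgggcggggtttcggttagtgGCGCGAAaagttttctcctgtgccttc
Rfc3, chr5:151651209-151651458, minus strand: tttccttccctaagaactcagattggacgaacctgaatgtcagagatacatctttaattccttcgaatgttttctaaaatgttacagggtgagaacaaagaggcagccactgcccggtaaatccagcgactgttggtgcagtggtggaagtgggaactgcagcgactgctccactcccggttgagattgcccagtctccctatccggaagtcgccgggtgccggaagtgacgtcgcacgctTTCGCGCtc
Ccne1, chr7:38107491-38107740, minus strand: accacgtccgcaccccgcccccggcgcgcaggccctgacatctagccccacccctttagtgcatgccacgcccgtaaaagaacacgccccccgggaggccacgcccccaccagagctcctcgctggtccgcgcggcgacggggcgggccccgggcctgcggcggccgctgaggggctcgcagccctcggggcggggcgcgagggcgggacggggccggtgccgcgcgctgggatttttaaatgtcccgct
Mcm5 and Mcm6 both hold several matches, in part overlapping, with Mcm6 holding 4 in 2 places. Pola1 holds 3 separate ones, and Rrm1, E2f8, Orc1 and Rfc3 hold 1 each. The Ccne1 window holds none of the 4 words, which says only that these letters are not in these 250 bases.

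Expression of the whole list was lower on average in Mll3-null cells, but no gene of it passed the test. The Mll3-null mean lay below the WT mean for 40 of 42 genes, where 48.5% of all genes did so, and the median difference was -0.28 (log2, Mll3-null minus WT), against 0.01 over all 22180 genes. Among genes with a mean over 6 it lay below for 30 of 32 members and 55.1% of all genes, whose median was -0.02. WT replicate 1 was the highest WT array for 39 members and Mll3-null replicate 1 the highest Mll3-null array for 42. The members thus moved together and are not independent observations. With limma's moderated test and Benjamini-Hochberg adjustment over all genes, 0 of 42 passed an adjusted p of 0.05, as did 0 of 22180 genes, or 0%. At an unadjusted p under 0.05, limma gave 1093 genes in either direction. On the lower side this held for 2 of the 42 (Brca1 and Ccne1), against 2.42% of all genes. The groups did not overlap for 4 of the 42, all lower in Mll3-null cells, where 5.31% of all genes lay wholly below and 5.44% wholly above the WT arrays. The adjusted p of the 42 ran from 0.84 to 0.99.

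For most of the genes the range over the arrays of a genotype was wider than the difference between the genotype means. Averaged over the 42 genes, the deviation from the 6-array mean was 0.37, -0.11 and 0.12 on WT replicates 1 to 3 and 0.25, -0.23 and -0.40 on Mll3-null replicates 1 to 3 (log2). The means were 0.13 ± 0.24 for WT and -0.13 ± 0.34 for Mll3-null (SD, n = 3 each). Mll3-null replicate 1 lay between the highest and the second highest WT array, and the other Mll3-null arrays lay below all WT arrays. WT replicate 1 was the highest of the 6 arrays for 27 genes and Mll3-null replicate 1 for 12. Mll3-null replicate 3 was the lowest for 26 genes, Mll3-null replicate 2 for 8 and WT replicate 2 for 7. Within the Mll3-null group replicate 1 was the highest for all 42 genes. The range over the WT arrays exceeded the difference between genotypes for 33 genes, and the range over the Mll3-null arrays did so for 40. A range over 3 single arrays and a difference of means are unlike measures, and the shares over all genes were not counted. The difference exceeded the pooled within-genotype SD for 16 of the 42 genes.

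**Figure D1:**
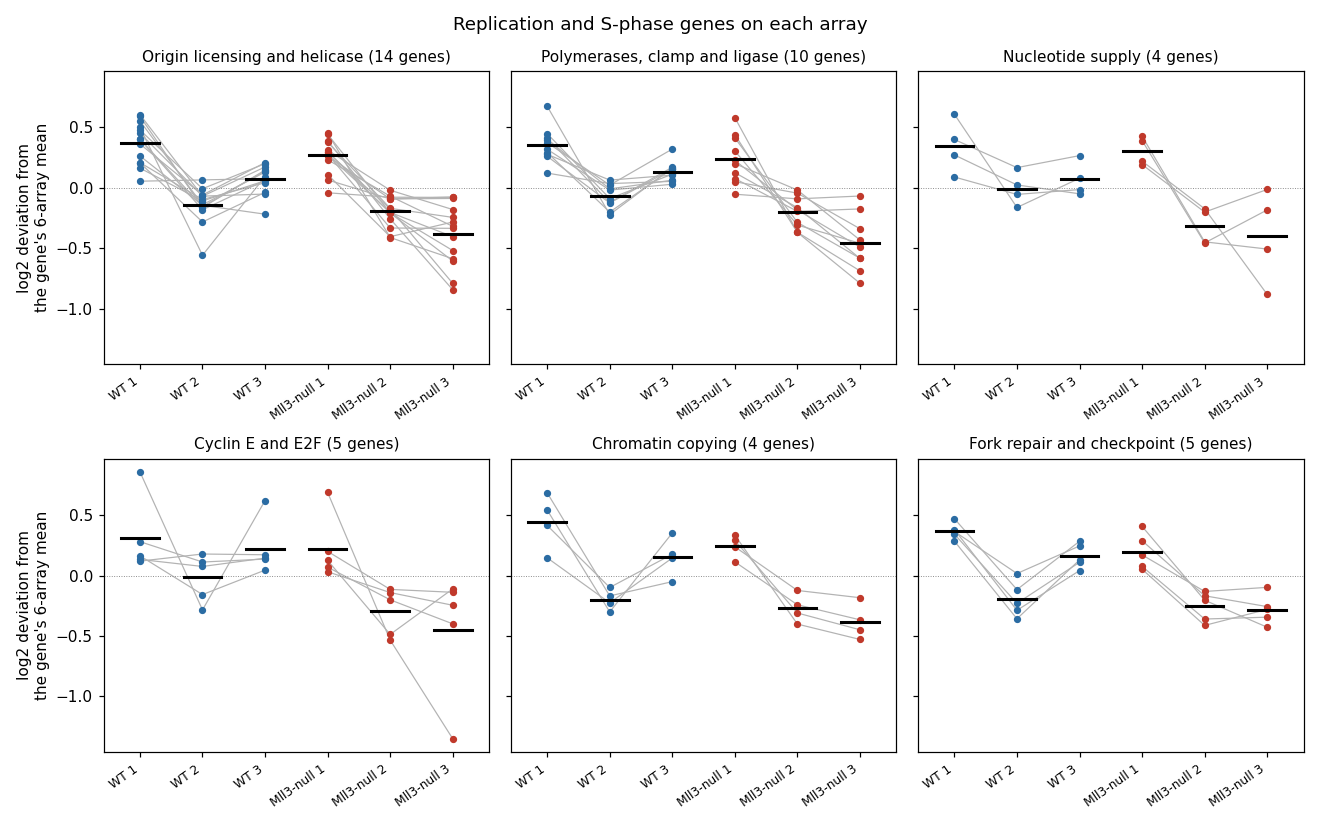
Each point is 1 gene on 1 array, as the log2 deviation from that gene's mean over the 6 arrays, in a panel for each step of replication; WT arrays are blue, Mll3-null arrays red, grey lines join the same gene within a genotype and black bars are the mean of the panel's genes on that array. Replicate 1 has the highest bar of its genotype in all 6 panels, and Mll3-null replicate 3 has the lowest bar in each.

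Set against the WT arrays one by one, Mll3-null replicate 1 lay above all of them for 12 genes, within their range for 26 and below it for 4, where 22.5% of all genes lay above and 23.6% below. Replicate 2 lay below all WT arrays for 30 of 42 genes and replicate 3 for 33, where 25.5% and 28.6% of all genes did. The median distance from the WT mean was 0.15, -0.37 and -0.51 for Mll3-null replicates 1 to 3. Mll3-null replicate 3 also stood apart on the array as a whole: 294 genes lay more than 1 log2 unit below the 5 other arrays there, against 1 to 24 genes on each of those, and 123 lay more than 1 unit above, against 9 to 33. None of the 42 genes was among those below, which says little, since 294 of 22180 genes is a small share. More than 0.5 below lay 4 (Mcm4, Gins1, Rrm1 and E2f8), and the share of all genes that did so was not counted. Whatever sets that array apart was not tested.

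Among the 14 licensing and helicase genes 12 had a lower Mll3-null mean, with a median difference of -0.21. Orc1, the ATPase subunit of the origin recognition complex that is made in G1, read 4.63, 4.64 and 4.65 on the WT arrays and 4.54, 4.501 and 4.499 on the Mll3-null arrays (log2, replicates 1 to 3). All Mll3-null arrays lay below all WT arrays, within a range of only 0.16, the narrowest of the list. The difference was -0.13 ± 0.08 (SE). Cdc6, the ATPase that loads the helicase together with Orc1, read 6.34, 5.59 and 5.90 in WT and 5.86, 5.35 and 5.47 in Mll3-null cells. WT replicate 1 was the highest and the genotypes overlapped, and the difference of -0.38 ± 0.22 (SE) was -0.18 without that array. Orc6, another subunit of the origin complex, differed by -0.076 ± 0.11.

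Cdt1, which brings the helicase to the origin and is destroyed once S phase begins, was one of the 2 members with a higher Mll3-null mean. It read 6.94, 6.53 and 6.46 on the WT arrays and 6.94, 6.59 and 6.60 on the Mll3-null arrays. Replicate 1 was the high array in both genotypes, at the same level, and the difference was 0.066 ± 0.17 (SE), which turned to -0.051 without Mll3-null replicate 1 and to -0.027 without WT replicate 3. Gins1, a subunit of the GINS complex of the active helicase, read 5.35, 4.86 and 5.07 in WT and 5.16, 4.69 and 4.08 in Mll3-null cells. Mll3-null replicate 3 was far below the rest, and the difference of -0.45 ± 0.28 became -0.16 without it. Its partner Gins2 differed by -0.10 ± 0.16, Cdc45 by -0.19 ± 0.27 and Mcm10, which helps to activate the helicase, by -0.22 ± 0.22. Gins2 and Cdc45 were higher in Mll3-null cells, by 0.030 and 0.024, once Mll3-null replicate 3 was left out.

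The MCM helicase is a ring of related subunits. Mcm4 read 9.04, 8.37 and 8.61 in WT and 8.83, 8.18 and 7.59 in Mll3-null cells, a difference of -0.47 ± 0.33 (log2, SE) that was -0.17 without Mll3-null replicate 3. Mcm5 read 8.69, 7.996 and 8.27 against 8.59, 7.72 and 7.55, and Mcm7 read 8.60, 8.17 and 8.44 against 8.53, 8.02 and 7.63. Both were low on Mll3-null replicates 2 and 3 and overlapped through replicate 1, with differences of -0.36 ± 0.31 and -0.34 ± 0.24, or -0.16 and -0.13 without Mll3-null replicate 3. Mcm2 read 8.24, 7.68 and 7.97 against 8.11, 7.499 and 7.497, a difference of -0.26 ± 0.22 that was -0.12 without WT replicate 1. Mcm6 and Mcm3 did not lie lower to this extent. Mcm6 read 9.06, 8.57 and 8.81 in WT and 9.16, 8.83 and 8.67 in Mll3-null cells, and Mll3-null replicate 1 was its highest array. Its difference was 0.075 ± 0.18, or -0.062 without Mll3-null replicate 1 and -0.048 without WT replicate 2. Mcm3 read 8.57, 7.52 and 8.17 against 8.45, 7.91 and 7.83, and its lowest array was WT replicate 2. Its difference was -0.024 ± 0.30, and the sign turned without any one of WT replicates 1 and 3 and Mll3-null replicates 2 and 3.

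Mcm3 and Mcm6 are both on mouse chromosome 1, as is the nuclease gene Exo1, whereas Mcm2, Mcm4, Mcm5 and Mcm7 are on chromosomes 6, 16, 8 and 5. On Mll3-null replicate 3 the 510 chromosome 1 genes with a mean over 6 had a median of 0.30 above their 6-array median, and on replicate 2 of 0.09, against -0.06 on replicate 1. Relative to the WT mean, Mll3-null replicate 3 read -0.14 for Mcm6, -0.26 for Mcm3 and -0.30 for Exo1. It read -0.46 for Mcm2, -0.77 for Mcm5, -0.78 for Mcm7 and -1.08 for Mcm4. Some genes of other chromosomes fell little there too, such as Tyms (-0.020), Cdt1 (-0.042) and Brca2 (-0.12). Averaged over the 3 genes of chromosome 1, that array deviated by -0.23 from the 6-array mean, and over the other 39 by -0.41. The part of the chromosome in these differences was not tested. On chromosome 10, where WT replicate 1 had a median of 0.22 over 443 genes, lie Prim1 and E2f7.

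**Figure D2:**
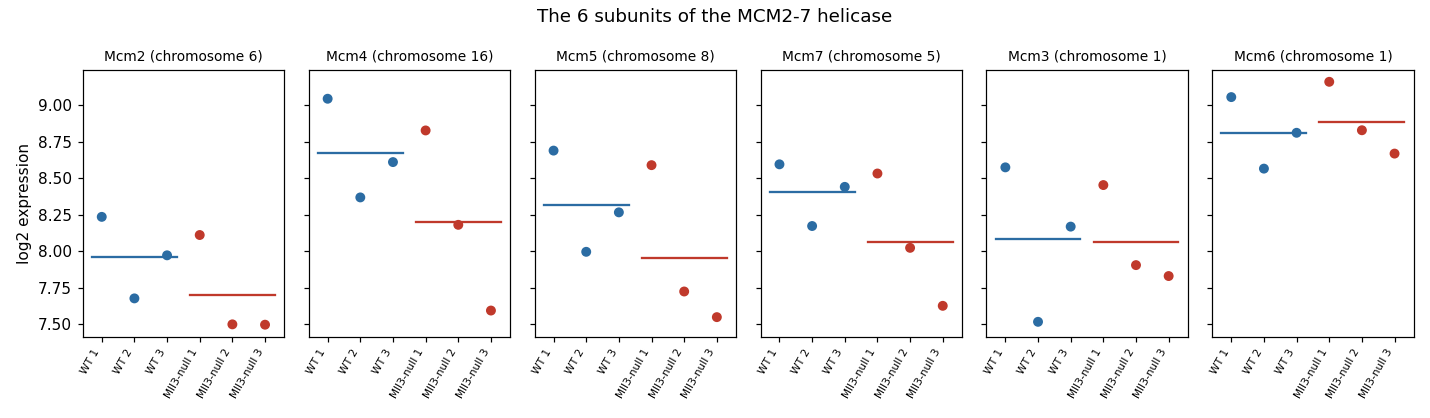
Log2 expression of the 6 helicase subunits on each array, with WT in blue and Mll3-null in red and a line at each genotype's mean of 3 arrays; levels of different genes are not comparable, since each is read by its own probes. The 2 lines are apart for Mcm2, Mcm4, Mcm5 and Mcm7 and nearly level for Mcm3 and Mcm6.

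All 10 measured genes of the polymerases, clamp and ligase had a lower Mll3-null mean, and the median difference was -0.30 (log2). Pola1, the catalytic subunit of the polymerase that extends the primer, read 7.28, 6.93 and 7.22 in WT and 7.34, 6.53 and 6.11 in Mll3-null cells. Mll3-null replicate 1 was its highest array and replicate 3 its lowest, and the difference of -0.48 ± 0.30 (SE) was -0.20 without replicate 3. Pola2, the accessory subunit, differed by -0.31 ± 0.23. Prim1, the primase that makes the RNA primer, read 7.98, 7.08 and 7.47 against 7.43, 7.14 and 6.72. WT replicate 1 was well above the others, the genotypes overlapped, and the difference of -0.41 ± 0.27 was -0.18 without WT replicate 1. Pole, the catalytic subunit of the leading strand polymerase, read 6.77, 6.23 and 6.43 against 6.90, 5.95 and 5.63. It had the widest range of this step, from highest to lowest within the Mll3-null group. Its difference of -0.32 ± 0.33 was -0.051 without Mll3-null replicate 3 and -0.17 without WT replicate 1. Averaged with a second probe set, which read only 3.52 to 3.72, it was -0.16. The lagging strand polymerase subunit Pold1 differed by -0.17 ± 0.20, and by 0.0077 without Mll3-null replicate 3.

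Pcna is the sliding clamp that tethers polymerases to DNA. It read 9.998, 9.78 and 9.82 on the WT arrays and 9.95, 9.54 and 9.23 on the Mll3-null arrays. Replicates 2 and 3 of the Mll3-null group lay below all WT arrays and replicate 1 did not, and the difference was -0.30 ± 0.19 (SE), or -0.13 without Mll3-null replicate 3. Rfc3, a subunit of the complex that opens the clamp, read 6.41, 6.32 and 6.34 against 6.23, 6.19 and 6.22. The genotypes did not overlap, at a difference of only -0.14 ± 0.08 and with little spread on either side. Rfc5, of the same complex, differed by -0.19 ± 0.14. Fen1, the nuclease that trims Okazaki fragments, differed by -0.22 ± 0.14, and Lig1, the ligase that seals them, by -0.30 ± 0.26.

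The 4 genes of nucleotide supply had a median difference of -0.26, all with a lower Mll3-null mean. Rrm1, the large subunit of ribonucleotide reductase, read 9.72, 9.49 and 9.59 in WT and 9.54, 9.15 and 8.44 in Mll3-null cells. Mll3-null replicate 1 lay inside the WT range and replicate 3 was 1.16 below the WT mean. The difference of -0.56 ± 0.27 (SE), or 1.47-fold lower, had a 95% interval from -1.20 to 0.09, and was -0.25 without that array. Rrm2, the small subunit that accumulates in S phase, read 7.73, 6.95 and 7.20 against 7.54, 6.67 and 6.61. Replicate 1 was high in both genotypes. The difference of -0.35 ± 0.31 was -0.13 without WT replicate 1 and -0.19 without Mll3-null replicate 3. Averaged with a second probe set, which read only 2.67 to 3.05, it was -0.22. Thymidine kinase, Tk1, differed by -0.16 ± 0.22 and was higher in Mll3-null cells, by 0.022, without Mll3-null replicate 2. Thymidylate synthase, Tyms, differed by -0.014 ± 0.12 with a 95% interval from -0.30 to 0.28.

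Cyclin E and the E2F factors set the time of S-phase entry, and all 5 measured genes had a lower Mll3-null mean (median -0.31). Ccne1, cyclin E1, read 6.48, 6.31 and 6.33 on the WT arrays and 6.27, 5.995 and 5.80 on the Mll3-null arrays. Every Mll3-null array lay below every WT array, replicate 1 by a narrow margin. The difference was -0.35 ± 0.14 (SE), or 1.28-fold lower, with a 95% interval ending at -0.026. Its adjusted p in limma was 0.84. E2f2, an activating E2F, read 5.62, 5.56 and 5.63 against 5.52, 5.35 and 5.24. These groups did not overlap either, and the difference was -0.24 ± 0.10. E2f1, also an activating E2F, read 6.38, 6.44 and 6.43 against 6.39, 5.77 and 6.15. Its WT arrays were nearly level, and the difference of -0.31 ± 0.16 was -0.15 without Mll3-null replicate 2. The activating E2f3, outside the list, differed by 0.058.

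E2f8, a repressive E2F that is itself a target of the family, varied most of all 42 genes. It read 7.69, 6.55 and 7.45 in WT and 7.52, 6.30 and 5.48 in Mll3-null cells, a range of 2.21. WT replicate 2 lay beside Mll3-null replicate 2, and only Mll3-null replicate 3 was clear of the WT arrays by a wide margin. The difference was -0.80 ± 0.54 (log2, SE) with a 95% interval from -2.10 to 0.51, and it was -0.32 without Mll3-null replicate 3. E2f7, its close relative, differed by -0.035 ± 0.14, within a range of 0.36 over all arrays, and was higher in Mll3-null cells without any one of WT replicate 1 and Mll3-null replicates 2 and 3.

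The 4 genes that restore chromatin behind the fork had a median difference of -0.32. Chaf1b, a subunit of the histone chaperone CAF-1, read 8.05, 7.54 and 7.81 in WT and 7.75, 7.39 and 7.27 in Mll3-null cells. Mll3-null replicate 1 lay inside the WT range and the others below it, at a difference of -0.33 ± 0.18 (SE), or -0.20 without WT replicate 1. Chaf1a, the large subunit, read 6.53, 5.68 and 5.80 against 6.14, 5.54 and 5.40, and WT replicate 1 was its high array. Its difference of -0.31 ± 0.28 was -0.047 without WT replicate 1. Uhrf1, which recruits the maintenance methyltransferase to newly copied DNA, read 7.68, 6.84 and 7.49 against 7.47, 6.74 and 6.61. The genotypes overlapped, with a difference of -0.40 ± 0.30, or -0.22 without WT replicate 1 and -0.23 without Mll3-null replicate 3. Dnmt1, that methyltransferase, differed by -0.045 ± 0.16, and the sign turned without any one of WT replicates 1 and 3 and Mll3-null replicates 2 and 3.

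Of the 5 genes of fork repair and checkpoint all had a lower Mll3-null mean, with the smallest median of the 6 steps, -0.15. Brca1, which protects stalled forks and directs recombination, read 5.64, 5.29 and 5.52 in WT and 5.35, 4.91 and 4.93 in Mll3-null cells. Mll3-null replicate 1 lay just above WT replicate 2, so the groups overlapped by that one array. The difference of -0.42 ± 0.16 (SE), or 1.34-fold lower, had a 95% interval ending at -0.044. After limma's adjustment its p was 0.84. Clspn, claspin, the adaptor that passes the checkpoint signal to Chek1, read 5.78, 5.19 and 5.59 against 5.36, 4.90 and 5.03. Replicate 2 was the low array in both genotypes, and the difference was -0.43 ± 0.19. The checkpoint kinase Chek1 differed by -0.15 ± 0.25, the nuclease Exo1 by -0.090 ± 0.21 and Brca2, which loads the recombinase, by -0.038 ± 0.18. These 3 were higher in Mll3-null cells without Mll3-null replicate 3, by 0.027, 0.016 and 9.6e-04.

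**Figure D3:**
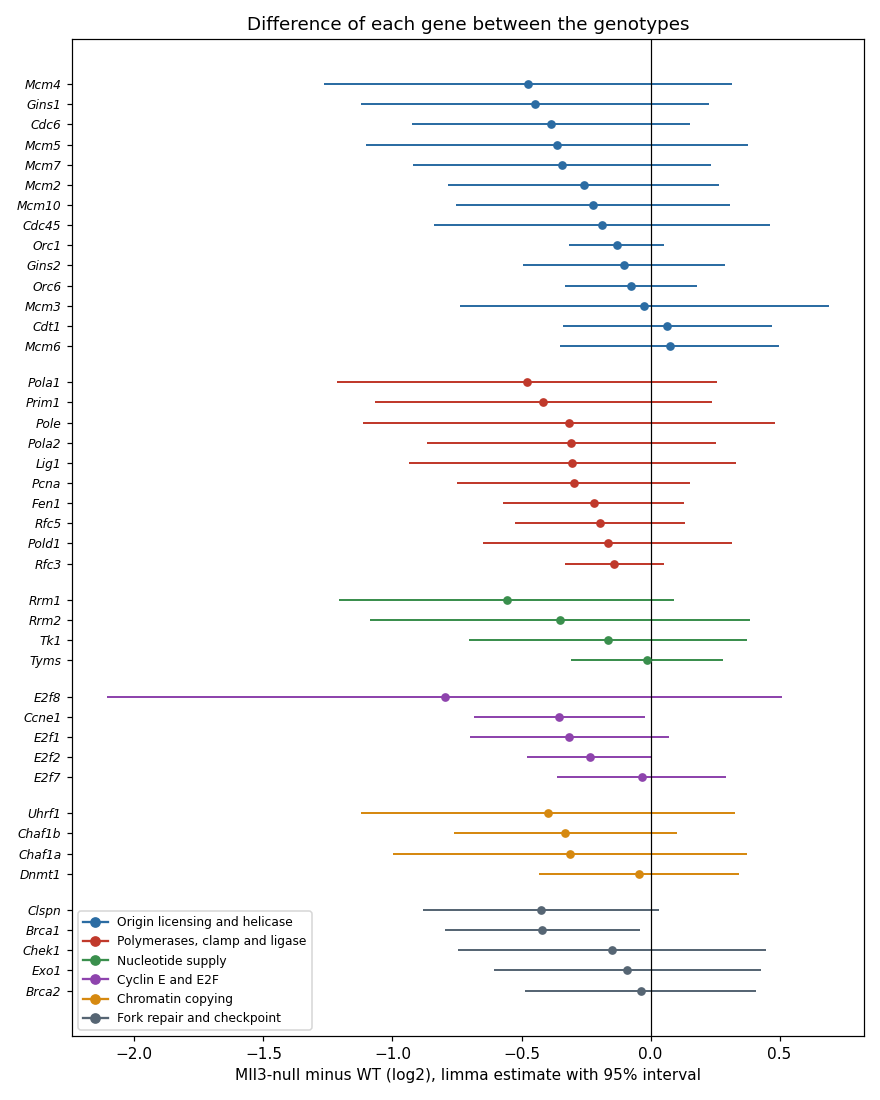
Difference of each gene between Mll3-null and WT cells (log2, horizontal axis), grouped by step and ordered within it; points are limma estimates from 3 arrays each and bars their 95% intervals, not corrected for the number of genes. Points of 40 genes lie left of 0, and the bars of Ccne1 and Brca1 alone end before it.

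How far the shift rests on single arrays was measured by leaving each out. The median over the 42 genes was -0.14 with WT replicate 1 left out, -0.13 with Mll3-null replicate 3 left out and -0.46 with Mll3-null replicate 1 left out. The number of genes with a lower Mll3-null mean was 34, 31 and 42 in these 3 cases. Genes wholly below the WT arrays numbered 5, 4 and 29, where 10.1%, 9.36% and 14.03% of all genes were, so that 5 and 4 of 42 lie near the share over all genes. With WT replicate 2 left out there were 12, against 9.76%. Step medians moved likewise: that of fork repair was 0.0010 without Mll3-null replicate 3 and -0.015 without WT replicate 1, that of licensing -0.10 and -0.087, and that of nucleotide supply -0.15 and -0.10. The polymerase median was -0.13 and -0.17 in the same cases, the chromatin median -0.20 and -0.13 and the entry median -0.24 and -0.30. Without Mll3-null replicate 1 the 6 step medians ran from -0.53 to -0.39. Without Mll3-null replicate 2 the nucleotide and repair medians were -0.097 and -0.085. The repair median was -0.28 when genes of chromosomes 1 and 10, Exo1 among them, were left out. Leaving out Mll3-null replicate 1 brought 21 of the 42 genes to an unadjusted p under 0.05 in limma, against 12.4% of all genes, and none past the adjusted threshold (smallest adjusted p 0.21). That array was the highest Mll3-null array for all 42 genes. Leaving it out therefore had to lower every Mll3-null mean, and the larger counts and medians without it are no separate evidence of a shift. Over the members, WT replicate 1 was the highest WT array and Mll3-null replicate 3 the lowest Mll3-null array. Leaving both out therefore had to raise the mean difference, and the opposite pair was not left out. When WT replicate 1 and Mll3-null replicate 3 were both left out, 21 of 42 genes had a lower Mll3-null mean and the median was 0.0030. In that comparison of 2 arrays with 2, E2f1 differed by -0.36, Brca1 by -0.27, Clspn by -0.26, Rrm1 and Ccne1 by -0.19 each and Mcm4 by 0.014.

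**Figure D4:**
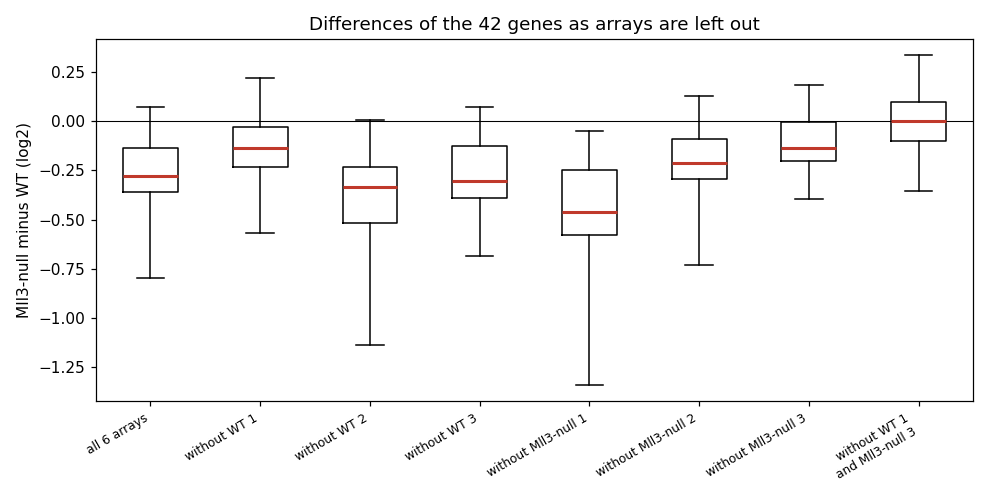
Differences of the 42 genes between Mll3-null and WT cells (log2) with all 6 arrays and with the named arrays left out; boxes span the quartiles over genes, red lines are medians and whiskers reach the lowest and highest gene. The median moves from -0.28 with all arrays to -0.46 without Mll3-null replicate 1 and to 0.0030 without both WT replicate 1 and Mll3-null replicate 3. That pair was the highest WT array and the lowest Mll3-null array over the 42 genes. Mll3-null replicate 1 was the highest Mll3-null array for all 42, so leaving it out had to lower the differences.

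Other genes of the pathway were counted from lists by step. None passed limma's adjusted threshold. Lower means were found for 15 of 21 further licensing genes, 13 of 20 polymerase genes, 14 of 17 genes of S-phase entry, 11 of 13 chromatin genes and 16 of 23 repair genes, with medians of -0.10, -0.07, -0.21, -0.15 and -0.16. Nucleotide genes split, with 8 of 17 lower and a median of 0.12. Among these Dctpp1, which clears damaged deoxycytidine triphosphate, read 7.72, 7.60 and 7.77 in WT and 7.34, 7.34 and 7.26 in Mll3-null cells. The genotypes did not overlap, and the difference was -0.38 ± 0.09 (SE). Cad, which starts pyrimidine synthesis, differed by -0.44 ± 0.16, the GINS subunit Gins3 by -0.24 ± 0.12, the phosphatase Cdc25a by -0.26 ± 0.11 and Skp2, which marks proteins for destruction at S-phase entry, by -0.55 ± 0.24. Wdhd1, which links the helicase to polymerase alpha, differed by -0.34 ± 0.19, Pole3 by -0.18 ± 0.08 and Pole4, both small subunits of polymerase epsilon, by 0.21 ± 0.11. The histone chaperone Nasp differed by -0.30 ± 0.19, Mms22l by -0.34 ± 0.17, the helicase Wrn by -0.46 ± 0.22 and Xrcc3 by 0.15 ± 0.08. Besides Dctpp1, genotypes did not overlap for Pole3, lower in Mll3-null cells, and Xrcc3, higher in them. No other gene of these lists was without overlap. Of all genes, 5.31% lay wholly below and 5.44% wholly above the WT arrays. The share over these lists combined was smaller on either side.

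Mitosis genes, which act later in the cycle, followed the same arrays. All 24 measured had a lower Mll3-null mean, with a median of -0.48, and none passed the adjusted threshold. Their array means were 0.62, -0.17 and 0.26 on WT replicates 1 to 3 and 0.67, -0.31 and -1.07 on Mll3-null replicates 1 to 3. On Mll3-null replicate 3 this was further down than the -0.40 of the replication genes. The kinase gene Cdk1 differed by -0.67 ± 0.42 (log2, SE) and the midbody kinesin Kif23 by -0.87 ± 0.58.

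The cell identity markers were read beside these values. The epithelial gene Epcam lay between 10.72 and 10.94 on the 6 arrays and luminal keratin Krt8 between 10.16 and 10.57. The 9 basal markers averaged 0.01 to 0.37 on the WT arrays, 0.36 and 0.60 on Mll3-null replicates 1 and 2 and -1.63 on replicate 3, the lowest array. The basal list did not move as one there: keratins Krt14 and Krt17, Trp63, Acta2 and Itgb4 were far below the other arrays (Krt14 at 6.65 against 11.74 to 12.43), the muscle genes Myh11, Mylk and Cnn1 read 4.13 to 5.08, within or near the range of the others, and the oxytocin receptor Oxtr was higher, at 8.35 against 4.74 to 6.54. The 11 luminal markers were highest on that array, at 0.50, and lowest on WT replicate 2, at -0.54, and they too varied: Kit ran from 5.38 to 8.76 and Elf5 from 6.002 to 9.02, both high on Mll3-null replicates 2 and 3, and Foxa1 read 6.46 on Mll3-null replicate 2 against 8.52 to 9.43 elsewhere. Whether the change in basal markers has a part in the low replication genes of Mll3-null replicate 3 was not tested. Array means of the 8 fibroblast, 7 immune and 6 endothelial markers stayed within -0.15 and 0.13, with the leukocyte gene Ptprc at 3.05 to 3.25 and the fibroblast gene Dcn at 2.80 to 3.20, below the lower quartile of 3.27 to 3.29 of all probe sets. Others of these lists were brighter than the array medians of 4.35 to 4.40: Col1a1 read 5.40 to 5.65, Cd68 4.81 to 5.61 and Pdgfra 4.55 to 6.32, highest on Mll3-null replicate 2. Kmt2c itself read 6.63, 5.58 and 5.82 in WT and 5.84, 6.42 and 6.07 in Mll3-null cells, so its mRNA did not separate the genotypes. Where its probes lie against the edit is not known here.

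**Figure D5:**
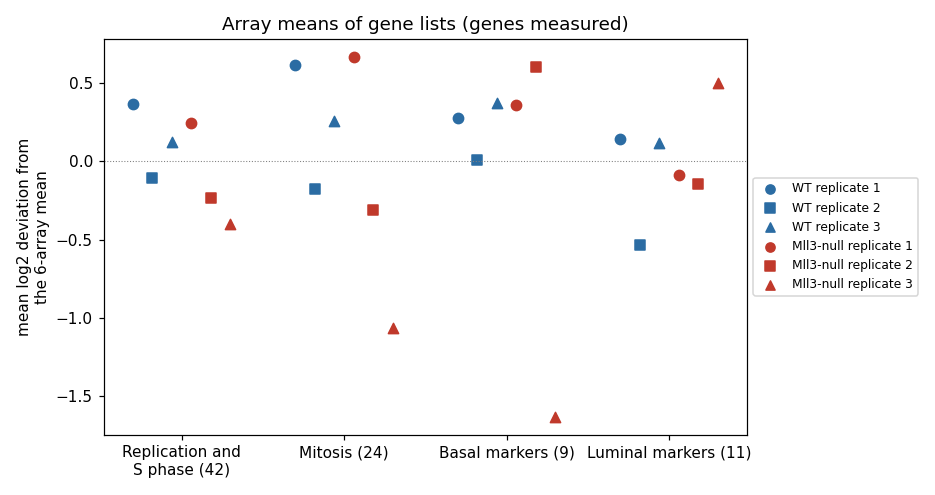
Mean log2 deviation from the 6-array mean on each array (symbols by replicate, WT blue, Mll3-null red) for the replication and S-phase genes, mitosis genes, basal markers and luminal markers, with the number of genes measured in brackets. Replication and mitosis genes put the arrays in a similar order, and basal markers are low on Mll3-null replicate 3 alone.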

How the data were processed

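Total RNA for the 6 arrays was labelled as biotinylated cRNA from 100 ng, per the labels' protocols. Affymetrix Expression Console produced the array values, per the submitters' processing notes. Neither its settings nor the normalization is stated in these sources. What was deposited was read as log2 expression: values span 1.72 to 13.56 and the quartiles hardly differ between arrays. A common scale of this kind can hide a change in total RNA per cell, and no detection values were used. The number of arrays limits the precision.

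Of 41345 probe sets, 23521 carried 1 gene symbol in the platform annotation. The one with the highest mean over 6 arrays stood for its gene, giving 22180 genes. Chromosomes came from the GRCm38.p6 annotation by gene identifier. Genotypes were compared in limma 3.58.1 under R 4.3.3 (lmFit and eBayes, two-sided, no block), with Benjamini-Hochberg adjustment over all genes. Differences are Mll3-null minus WT with the moderated standard error. The script was tested before use on simulated data with planted differences, which were larger than any difference found among the members. That test does not show whether differences of the members' size can be called.

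The members, lists and alternatives were chosen with earlier results of these data known. Values on every array are given, by step, for the members of smallest p (4 for licensing and polymerases, 2 otherwise), of widest range, without overlap, or against the step's direction. For the related lists the 2 of smallest p are named. E2f1, E2f3, the remaining helicase subunits and the marker genes were named after their values were seen. A list of 18 alternatives covered the spread model, weights, filters, scaling, probe set choice, the replicate block, left-out arrays and chromosomes 1 and 10.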

Additional observations from a re-analysis of the deposited data

How the results depend on the processing

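No alternative among the 18 brought a member or any other gene past the adjusted threshold in limma. The member median, -0.28 with all arrays, ran from -0.46 without Mll3-null replicate 1 to 0.0030 without both WT replicate 1 and Mll3-null replicate 3. The replicate block left the median at -0.28 and called 0 genes. It gave 7 members an unadjusted p under 0.05 in limma in place of 2, where 5.82% of all genes had one in place of 4.93%. Same-numbered arrays deviated together with correlations over genes of 0.035, 0.079 and 0.31. WT replicates 1 and 3 correlated best with the Mll3-null array of the same number, and WT replicate 2 did not. The numbers were not taken as pairs because no label ties them, and whether the arrays are paired is not known. The number of genes without overlap, 4 with all arrays, was 2 among genes with a mean over 6, where 10 members drop out and 7.51% of all genes lay wholly below. It ran from 4 to 29 when single arrays were left out, with 8.80% to 14.03% of all genes wholly below. All these members lay below except 1 that lay above without WT replicate 1. Of the differences that changed sign, Cdt1 was -0.021 with array weights and Tyms 0.020 after quantile normalization. The cause was not tested.

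With single arrays left out, the differences ran from -0.23 to 0.095 for Brca2, -0.46 to 0.024 for Cdc45, -0.051 to 0.21 for Cdt1, -0.39 to 0.027 for Chek1, -0.18 to 0.035 for Dnmt1, -0.14 to 0.038 for E2f7, -0.26 to 0.078 for Exo1 and -0.25 to 0.030 for Gins2. They ran from -0.11 to 0.41 for Kmt2c, -0.31 to 0.22 for Mcm3, -0.062 to 0.20 for Mcm6, -0.31 to 0.0077 for Pold1, -0.40 to 0.022 for Tk1 and -0.11 to 0.083 for Tyms.

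Without both WT replicate 1 and Mll3-null replicate 3, 21 members had a lower mean and 7 did not overlap, 5 below and 2 above, where 15.9% of all genes lay wholly below. The share of all genes wholly above was not counted there. There 19 differences changed sign. They were 0.34 for Mcm3, 0.012 for Orc6, 0.014 for Mcm4, 0.026 for Mcm5, 0.096 for Mcm10, 0.18 for Cdc45, 0.11 for Gins2, 0.0080 for Prim1, 0.11 for Pold1, 0.094 for Pole, 0.036 for Lig1, 0.032 for Rrm2, 0.030 for Tyms, 0.099 for E2f7, 0.098 for Dnmt1, 0.10 for Chaf1a, 0.13 for Brca2, 0.18 for Exo1 and 0.16 for Chek1. That comparison has 2 arrays a side, and the arrays left out were the highest WT and the lowest Mll3-null array over the members.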

Other observations

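For 3 of the genes there is a second probe set, which was dimmer than the first and entered only the alternatives on probe set choice. The second one for Fen1 read 4.81, 4.80 and 4.77 on WT replicates 1 to 3 and 4.75, 4.69 and 4.11 on Mll3-null replicates 1 to 3, so the low array was the same as with the first. The second probe set of Pole lay between 3.52 and 3.72 and that of Rrm2 between 2.67 and 3.05, and neither was lowest on Mll3-null replicate 3. Averaging with a probe set this dim can shrink a difference by itself.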
